A study of Homo sapiens with 66 samples.

Results

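Binding of hypoxia-inducible factor (HIF) was examined at 5 genes that handle acid and bicarbonate, which are CA9, CA12, CA2, SLC4A4 and SLC4A7, among 20162 protein-coding genes. A peak was counted for a gene when its centre lay in the gene body or within 50 kb of one of the gene's transcription start sites (TSSs), and when no other protein-coding gene had a nearer TSS. The 5 genes held 110 of the 131425 peaks called in 50 ChIP-seq libraries. CA9 held 36 of them, CA12 47, SLC4A4 23, CA2 2 and SLC4A7 2.

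Carbonic anhydrases interconvert carbon dioxide and bicarbonate. CA9 and CA12 encode transmembrane enzymes whose catalytic domain faces outside the cell, whereas CA2 encodes an abundant cytosolic enzyme. SLC4A4 (NBCe1) and SLC4A7 (NBCn1) encode sodium-bicarbonate cotransporters, and SLC4A4 carries bicarbonate across the basolateral membrane of the kidney proximal tubule. HIF is a dimer of an oxygen-regulated α-subunit, HIF-1α or HIF-2α, with the constitutive HIF-1β, and CA9 is widely used as a marker of hypoxia because HIF-1 acts on its promoter.

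The libraries came from 3 human lines and formed 25 groups of 2, each defined by line, genotype, oxygen, time and antibody. HKC-8, a line from kidney proximal tubule, was exposed to 0.5% oxygen during 6, 16 or 48 h, or to 3% oxygen during 6 h, and HIF-1α, HIF-2α and HIF-1β were precipitated in each condition (24 libraries). In a separate experiment (14 libraries), HKC-8 was kept at 0.5% oxygen for 16 h as wild type (WT, 3 antibodies), with HIF-1α knocked out (HIF-2α and HIF-1β precipitated), or lacking HIF-2α (HIF-1α and HIF-1β precipitated). Each knockout was a single clone made with CRISPR-Cas9, and the antibody to the deleted subunit was not used in it, so the peak lists cannot check the deletion. RCC4, a kidney cancer line without working VHL in which HIF-α persists in normal oxygen, was studied in normoxia (its HIF-1β replicates are numbered 2 and 3), and HepG2, a liver cancer line, at 0.5% oxygen for 16 h (6 libraries each). All groups were probed with the same 3 rabbit polyclonal antibodies. The paper calls its replicates independent ChIP-seq experiments, but the labels do not tie them to separate cultures. The p-values therefore measure the spread between these libraries.

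Each list held between 237 and 8279 peaks. The lists of the severity and duration experiment were short (237 to 1793 peaks) and those of the knockout experiment ran from 915 to 8279. A peak list holds no read depth, so a site missing from a list was not called there and may still be bound. Peaks were therefore compared by their percentile within a list, in which the peak with the highest caller score stands at 100, and a gene without a peak was given 0. In HepG2 the labels and the lists disagreed in one respect: peaks within 1 kb of a TSS made up 8.33% and 30.5% of the lists labelled HIF-1α (replicates 1 and 2) but 32.3% and 10.0% of those labelled HIF-2α. In WT HKC-8 these shares were 22.9% and 20.8% for HIF-1α against 8.97% and 8.50% for HIF-2α. HepG2 libraries are therefore called by their labels. The isoform difference, the counts of libraries and the likeness between genes are given with and without them.

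Peaks at the 5 genes merged into 16 sites, of which 4 were called in at least 2 libraries and 12 in 1 library. The CA9 promoter site (chr9:35673073-35674643, GRCh37) was called in 36 libraries, with its median centre 43 bp upstream of the CA9 TSS. That position also lies in an untranslated exon of a long ARHGEF39 transcript on the opposite strand. CA12 had a near intron site (chr15:63663973-63666179, 25 libraries), centred 6.435 kb downstream of the nearest CA12 TSS, and a far intron site (chr15:63653486-63655679, 18 libraries), 16.601 kb downstream. The SLC4A4 intron site (chr4:72096293-72097563, 19 libraries) lay 4.794 kb upstream of an internal SLC4A4 TSS.

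The reference sequence at these 4 sites (GRCh37, plus strand) is shown because their peaks carry nearly all of the binding described here. Capitals mark the letters ACGTG or GCGTG on either strand, the core of a hypoxia response element (HRE). For the 3 intron sites the window is 201 bp around the median peak centre. At CA9 only the 30 bases around the single HRE core are given.
CA9 promoter site, chr9:35673895-35673924: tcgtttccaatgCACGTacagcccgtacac
CA12 near intron site, chr15:63664737-63664937: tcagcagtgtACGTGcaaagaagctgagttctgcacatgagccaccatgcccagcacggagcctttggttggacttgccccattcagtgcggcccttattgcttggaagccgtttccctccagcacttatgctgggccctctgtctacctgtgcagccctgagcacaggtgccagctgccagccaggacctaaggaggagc
CA12 far intron site, chr15:63654570-63654770: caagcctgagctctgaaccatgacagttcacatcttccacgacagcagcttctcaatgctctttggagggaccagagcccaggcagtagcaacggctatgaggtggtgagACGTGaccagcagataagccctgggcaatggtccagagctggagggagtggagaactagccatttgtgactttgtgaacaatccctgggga
SLC4A4 intron site, chr4:72096852-72097052: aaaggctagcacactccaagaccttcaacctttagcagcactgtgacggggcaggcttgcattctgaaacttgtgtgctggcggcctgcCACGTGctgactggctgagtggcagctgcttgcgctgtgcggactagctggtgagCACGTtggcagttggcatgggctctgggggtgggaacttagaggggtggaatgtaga

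The CA9 site held 1 HRE core over its whole 1571 bp, 28 bp from the median centre on the side of the TSS. The SLC4A4 window held 3 HRE cores, of which a pair overlaps on opposite strands in the palindrome CACGTG. Each CA12 window held 1 HRE core, 12 bp from the centre at the far site and 88 bp at the near site, and the merged intervals held 4 and 6. An HRE core lay within 100 bp of the library's own peak centre in 33 of 36 libraries at CA9, 19 of 19 at SLC4A4, 17 of 18 at the far CA12 site and 19 of 25 at the near one. Of all 131131 peak windows of this size on chromosomes 1 to 22, X and Y, 49.6% held such letters. The library counts repeat the same 4 sites, so they tell how peak centres scattered about fixed letters and are not a measure of enrichment over this share. The AP-1 motif (TGACTCA or TGAGTCA) lay 1 time in the CA9 window, centred 30 bp from the median peak centre on the side away from the HRE core. In the near CA12 interval it lay 2 times, at −195 bp and −101 bp from the median centre, and neither match was whole within the window. It was in 12.4% of all windows, being in 8.29% of HIF-1α windows and 14.3% of HIF-2α windows. These letters are a description of the windows and not a record of what was bound.

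**Figure D1:**
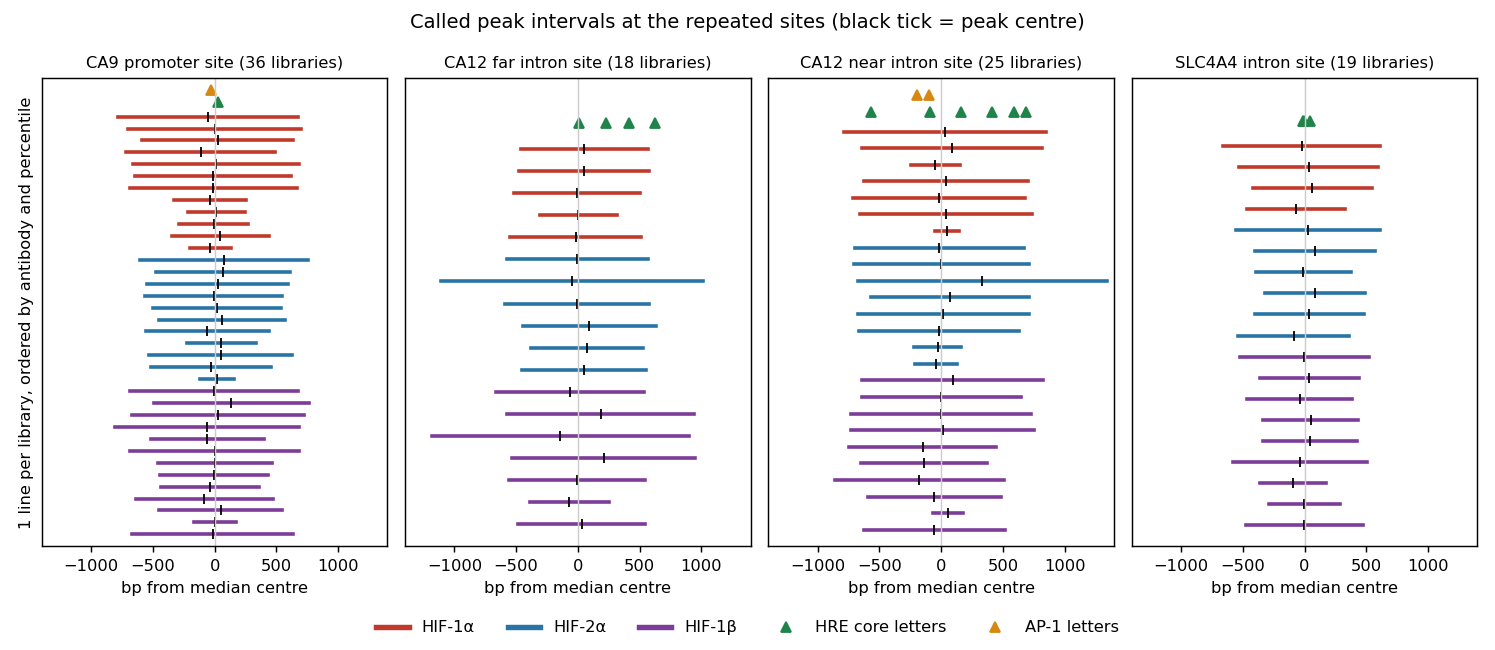
Each horizontal line is the peak called in 1 library, coloured by antibody, with distance in bp from the site's median peak centre on the x axis and 1 library per row. Black ticks are peak centres and triangles mark HRE core and AP-1 letters in the reference; the centres of the 36 CA9 peaks fell within 246 bp of each other, those of the 19 SLC4A4 peaks within 180 bp.

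Peaks of the different antibodies lay in the same place. At CA9 the median centre was 52.5 bp upstream of the TSS for HIF-1α (12 libraries), 19 bp upstream for HIF-2α (11 libraries) and 50 bp upstream for HIF-1β (13 libraries). The ranges of the 3 antibodies overlapped. At SLC4A4 the median centres, at −4789 bp from the internal TSS for HIF-1α, −4761 bp for HIF-2α and −4794 bp for HIF-1β lay closer together than the peaks of any 1 antibody.

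All 5 genes had a peak in at least 1 library, as did 60.3% of protein-coding genes. CA9, CA12 and SLC4A4 had a peak in both replicates of at least 1 group, against 26.1% of all genes. CA9 was called in 36 of 50 libraries, and 0.709% of protein-coding genes were called in at least as many. CA12 was called in 28 (1.57% of genes in at least as many) and SLC4A4 in 21 (3.45%), whereas CA2 and SLC4A7 were called in 2 each (43.8%). Without HepG2, CA9 was called in 30 of 44 libraries (0.838% of genes in at least as many), CA12 in 26 (1.31%) and SLC4A4 in 19 (2.96%). All 3 of CA9, CA12 and SLC4A4 were called together in 17 libraries, and none of them in 10. Of the 21 libraries with an SLC4A4 peak, 95.2% had a CA9 peak, while 55.6% of the 36 libraries with a CA9 peak had an SLC4A4 peak. CA9 was called in 13 of 14 libraries of the knockout experiment, 6 of 6 of RCC4 and 6 of 6 of HepG2. SLC4A4 was called in 11, 6 and 2 of these, and in 2 of the 24 severity and duration libraries. The share of 95.2% was thus near the rate of CA9 calls in these sets, and a link between the genes was not tested.

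**Figure D2:**
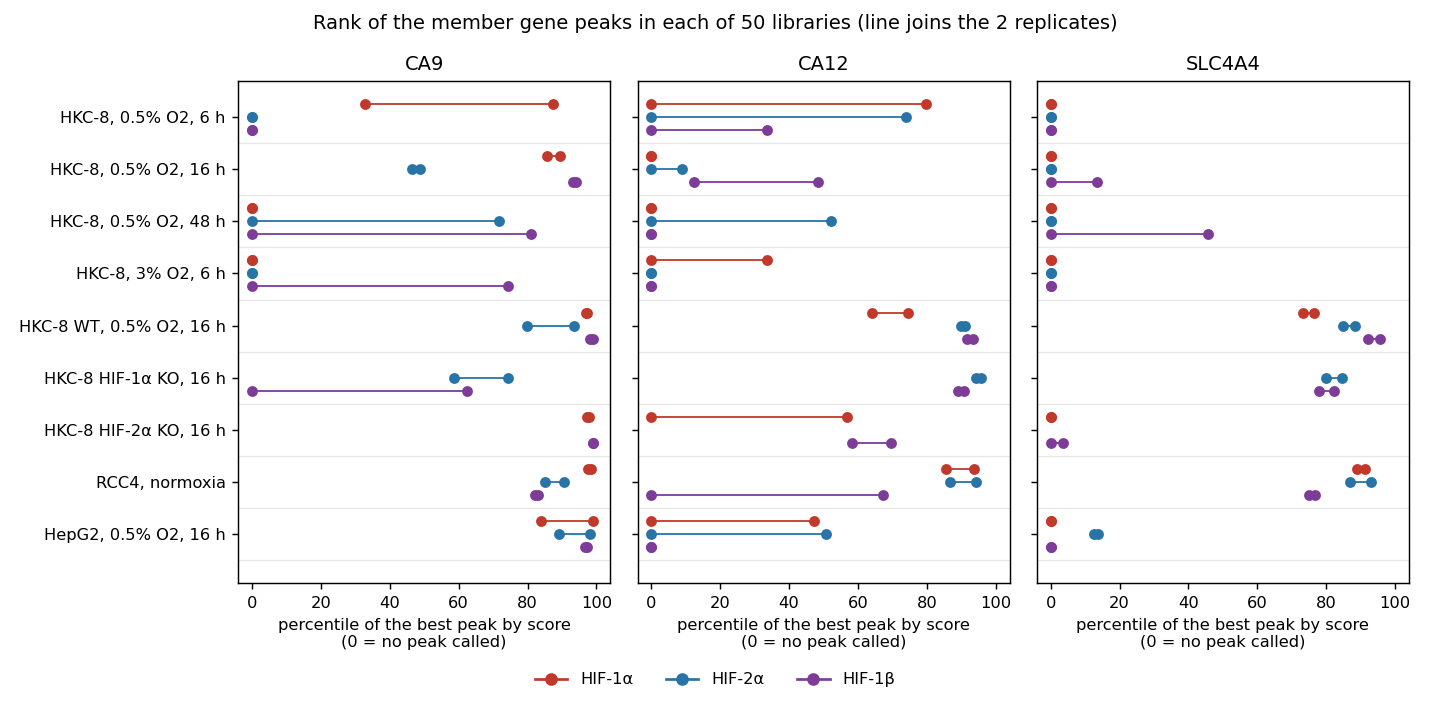
Percentile of the best peak at CA9, CA12 and SLC4A4 in each of the 50 libraries, by condition (rows) and antibody (colour), with 0 for no call and a line joining the 2 replicates of a group. CA9 points stand at 79.9 or higher for all antibodies in WT HKC-8, RCC4 and HepG2, whereas SLC4A4 points stand at 0 in both HIF-1α libraries of the HIF-2α knockout.

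CA9 ranked higher in the HIF-1α lists of WT HKC-8 and RCC4 than in their HIF-2α lists. In WT HKC-8 at 16 h its promoter peak had percentiles of 97.3 (rank 52 of 1913) and 96.9 (rank 48 of 1535) for HIF-1α. HIF-2α gave 79.9 (rank 911 of 4537) and 93.5 (rank 440 of 6749), and HIF-1β gave 98.03 and 99.0. Both HIF-1α libraries lay above both HIF-2α libraries, as they did for 6.67% of the 3477 genes with a peak there. RCC4 gave 98.5 and 97.5 for HIF-1α, 90.6 and 85.1 for HIF-2α, and 82.2 and 83.1 for HIF-1β. Here, too, HIF-1α lay above HIF-2α without overlap, as it did for 8.92% of 5335 genes. In HepG2 the libraries labelled HIF-1α stood at 83.9 and 98.9, those labelled HIF-2α at 98.2 and 89.1, and HIF-1β at 96.8 and 97.3. Within each HepG2 label, the library with the larger share of promoter-proximal peaks had the higher CA9 percentile; the part of the labels in this was not tested.

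Over all 25 groups, CA9 was called in both libraries of 16, in 1 library of 4 and in neither of 5. The highest mean was for HIF-1β in the HIF-2α knockout (99.1 ± 0.0551, SD, n = 2), followed by HIF-1β in WT HKC-8 (98.5 ± 0.674), HIF-1α in RCC4 (97.996 ± 0.768), HIF-1α in the HIF-2α knockout (97.5 ± 0.402) and HIF-1α in WT HKC-8 (97.1 ± 0.280). Only 3 of the 19 neighbouring pairs in this order were apart without overlap. In the severity and duration experiment CA9 was called in 11 of 24 libraries. Among these, the 16 h group was the only time point with all 6 libraries called, at 89.5 and 85.7 for HIF-1α, 46.5 and 48.8 for HIF-2α, and 94.0 and 93.3 for HIF-1β.

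CA12 showed an isoform order in WT HKC-8 by percentile but not by rank from the top. Its best peak stood at 74.4 and 64.0 for HIF-1α, at 89.8 and 91.1 for HIF-2α and at 91.7 and 93.4 for HIF-1β. HIF-2α lay above HIF-1α in all libraries, as it did for 48.9% of the 3477 genes with a peak there, but the HIF-1α lists were the shorter. By rank from the top the isoforms overlapped, at 491 of 1913 and 554 of 1535 for HIF-1α against 464 of 4537 and 601 of 6749 for HIF-2α. In RCC4 the isoforms overlapped, with 93.5 and 85.5 for HIF-1α and 94.2 and 86.6 for HIF-2α, and HIF-1β was called in 1 of 2 libraries, at 67.3. CA12 was called in both libraries of 9 groups, in 1 library of 10 and in neither of 6. In the severity and duration lists it was called in 8 of 24 libraries, and HIF-1β at 0.5% oxygen for 16 h (12.4 and 48.4) was the only group with both.

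The near and far CA12 sites, 10.2 kb apart, were called together in 17 libraries. The near site was called alone in 8 libraries and the far site alone in 1. Where both were called, the near site ranked higher in 12 libraries and the far site in 5, with a median difference of 2.31 percentile points (−26.1 to 56.0). The difference was widest in an RCC4 HIF-1α library (replicate 1), at 93.5 for the near and 37.5 for the far site. In RCC4 the near site was called in 5 of 6 libraries and the far site in 3, and for HIF-2α the far site stood at 68.9 and 86.6 against 94.2 and 84.1 for the near site. Within the short HKC-8 lists, 7 libraries held the near site and 1 the far site. In HepG2 the near site was called in no library and the far site only in the library labelled HIF-1α replicate 2 (47.1).

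For SLC4A4 the isoform order in WT HKC-8 turned with the measure. By percentile its intron site stood at 76.4 and 73.2 for HIF-1α, 84.9 and 88.3 for HIF-2α, and 92.0 and 95.6 for HIF-1β. HIF-2α lay above HIF-1α without overlap, as it did for 48.9% of the 3477 genes with a peak there. HIF-1β lay above both isoforms, an order that was not counted over all genes. By rank from the top, HIF-1α stood higher, at 453 and 413 against 688 and 794 for HIF-2α, and HIF-1β (494 and 366) overlapped HIF-1α. RCC4 gave 91.3 and 89.0 for HIF-1α, 92.9 and 87.0 for HIF-2α, and 74.9 and 76.8 for HIF-1β. In RCC4 the isoforms overlapped and HIF-1β lay below both by percentile, although its ranks (230 of 911 and 304 of 1305) did not. That HIF-1β order, too, was not counted over all genes. In the severity and duration lists the site was called in 2 of 24 libraries, both HIF-1β (13.3 at 16 h and 45.6 at 48 h), and in HepG2 in none. The HepG2 values of the gene for HIF-2α (12.6 and 13.8) came from different sites, each called in 1 library.

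CA2 and SLC4A7 were rarely called. The CA2 peaks were in single libraries at 0.5% oxygen for 6 h. One was 44.7 kb from a CA2 TSS (HIF-2α replicate 1, rank 258 of 1417) and the other 26.3 kb away (HIF-1α replicate 2, rank 1293 of 1319). SLC4A7 had a peak in a coding exon in WT HIF-1β replicate 2 (rank 6475 of 8279) and one 17.1 kb upstream at 3% oxygen in HIF-1α replicate 1 (rank 1182 of 1223). None of the 12 single-library sites had a score above 71.8, and their percentiles ran from 2.05 to 81.9. The 50 kb limit separated CA2 at 44.7 kb from a peak 53.2 kb from SLC4A7 (HIF-2α, 0.5% oxygen, 16 h, rank 376 of 1198). A further site 16.1 kb upstream of the CA9 TSS was nearer to CCDC107. It was called in 33 libraries, 27 of which also had the CA9 peak.

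The knockout experiment asked whether binding of one isoform depends on the other. In the HIF-1β libraries, which read dimers of either isoform, the CA9 promoter site stood at 98.03 and 99.0 in WT and 99.1 and 99.1 in the HIF-2α knockout. In the HIF-1α knockout it was not called in replicate 1 and stood at 62.5 (rank 2171 of 5786) in replicate 2. The SLC4A4 site had the other order. It stood at 92.0 and 95.6 in WT, 78.0 and 82.4 in the HIF-1α knockout, and in the HIF-2α knockout at 3.63 (rank 2458 of 2550) in replicate 1 with no call in replicate 2. CA12 lay between, with its best peak at 89.0 and 90.8 in the HIF-1α knockout and 69.7 and 58.2 in the HIF-2α knockout.

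**Figure D3:**
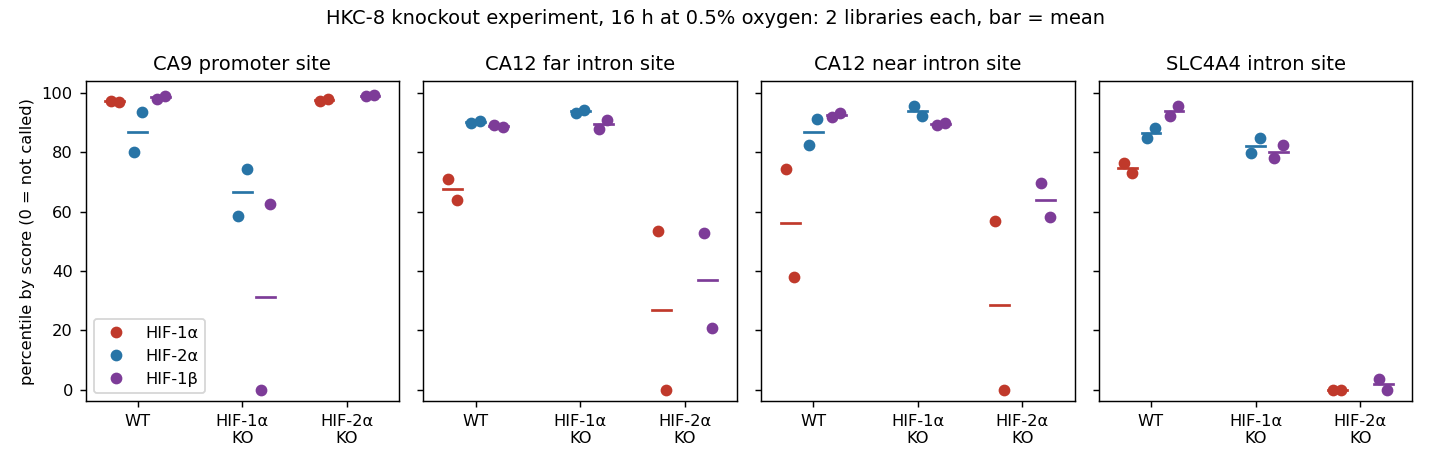
Percentile of each repeated site (0 = not called) in WT HKC-8 and in the 2 knockout clones after 16 h at 0.5% oxygen, with a point for each library, a bar for the mean of 2 and colour for the antibody. In HIF-1β libraries CA9 is at 0 and 62.5 in the HIF-1α knockout, and the SLC4A4 site is at 3.63 and 0 in the HIF-2α knockout.

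Between the knockouts, the mean HIF-1β percentile of CA9 was 31.2 ± 44.2 in the HIF-1α knockout and 99.1 ± 0.0551 in the HIF-2α knockout (SD, n = 2 each), which differ by −67.8 points. For CA12 the difference was 26.0 points (89.9 ± 1.24 against 64.0 ± 8.17), and for SLC4A4 78.4 points (80.2 ± 3.09 against 1.81 ± 2.57). The groups did not overlap for any of the 3, by percentile or by rank from the top with a missing call placed last. Leaving out replicate 1 left −36.6 points for CA9. Of 3672 genes with a peak in these 4 libraries, 12.7% lay lower without HIF-1α as CA9 did, and 33.7% lay higher as CA12 and SLC4A4 did. With 2 libraries against 2, the exact permutation test cannot give a p below 0.333, which was the p of each of the 3 genes (two-sided; adjusted p = 0.480 over 1216 genes), and 0 genes passed at either the adjusted or the unadjusted threshold of 0.05.

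Against WT, the HIF-1α libraries of the HIF-2α knockout had CA9 at 97.2 and 97.8 (WT 97.3 and 96.9). SLC4A4 was called in neither (WT 76.4 and 73.2), and CA12 in 1, at 56.7 (WT 74.4 and 64.0). SLC4A4 and CA12 thus lay below WT without overlap, as did 24.2% of 1812 genes, but by rank the 1 CA12 call (551 of 1271) fell between the WT ranks of 491 and 554. These HIF-1α lists were also shorter, at 1271 and 915 peaks against 1913 and 1535 in WT. The paper reports slightly lower HIF-1α protein and binding in the HIF-2α knockout cells, possibly from clonal variation. In HIF-2α libraries of the HIF-1α knockout, CA9 stood at 58.5 and 74.3 against 79.9 and 93.5 in WT, and SLC4A4 stood at 79.8 and 84.6 against 84.9 and 88.3. Both lay below WT, as 16% of 4085 genes did, whereas CA12 (95.7 and 94.2) lay above WT, as 23.5% did. The paper reports that loss of HIF-1α left HIF-2α binding unchanged, from read signal over sets of sites rather than percentiles within a list. In HIF-1β libraries all 3 genes lay below WT in the HIF-1α knockout (35.9% of 4637 genes), although by rank CA12 (372 and 533 against 514 and 550) overlapped WT. In the HIF-2α knockout CA12 and SLC4A4 lay below WT (51.1% of 4401 genes) and CA9 above it (3.09%). Each of these WT comparisons had 2 libraries a side and a smallest exact p of 0.333, and each genotype is 1 clone, so clone and genotype cannot be told apart.

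Next, HIF-1α and HIF-2α were compared over the 7 conditions in which both were precipitated (28 libraries), with labels permuted within condition. CA9 was 11.8 percentile points higher for HIF-1α (62.0 against 50.3, lists without a call counted as 0), with a two-sided exact permutation p of 0.192 and an adjusted p of 0.731 over 5099 genes. HIF-1α was the higher in 4 conditions, all without overlap, and the lower in 2. HIF-1α minus HIF-2α was 60.2 points in HKC-8 after 6 h, 39.96 after 16 h and −35.9 after 48 h, 10.4 for WT HKC-8, 10.1 for RCC4 and −2.22 for HepG2, with no call of either isoform at 3% oxygen. Of the genes with a peak in the condition, HIF-1α lay above HIF-2α without overlap for 5.92% at 6 h, 9.18% at 16 h, 6.67% in WT HKC-8 and 8.92% in RCC4. Without HepG2 the CA9 difference was 14.1 points (p = 0.178, adjusted p = 0.470, exact permutation test). Other settings moved it both ways. With the lists of a condition cut to equal length it was 23.4 points and passed the threshold (p = 0.00103, adjusted p = 0.0425, exact permutation test), and without the 3% and 48 h conditions it was 23.7 points and did not (adjusted p = 0.231, exact permutation test). With peaks given to the nearest gene body, which leaves CA9 with 8 libraries, it was −18.5 points (adjusted p = 0.661, exact permutation test), and without HIF-2α replicate 2 at 48 h it was 6.66 points.

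**Figure D4:**
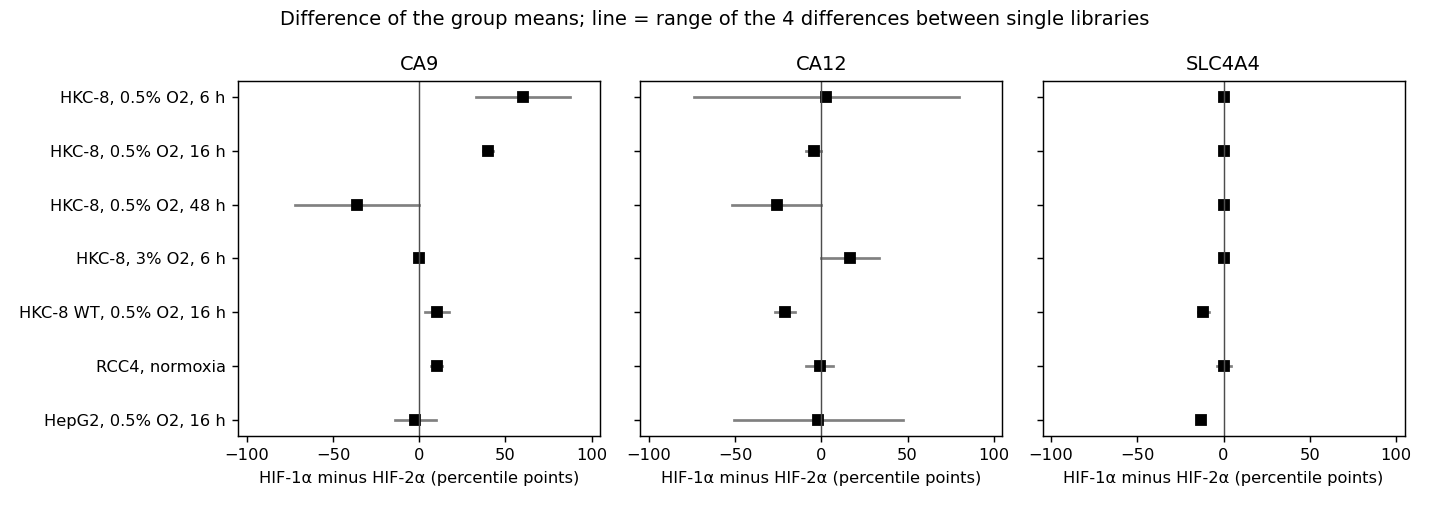
HIF-1α minus HIF-2α in percentile points at CA9, CA12 and SLC4A4 for each of the 7 conditions; squares are differences of the group means and lines span the 4 differences between single libraries. CA9 squares lie right of 0 in 4 conditions, from 10.1 points in RCC4 to 60.2 at 6 h, and left of 0 at 48 h and in HepG2.

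CA12 differed by −4.97 points between HIF-1α and HIF-2α (p = 0.587, adjusted p = 0.928, exact permutation test), and without HepG2 by −5.49 points (adjusted p = 0.811). Its direction did not hold: without replicate 2 of HIF-1α at 6 h the difference was 0.722 points, and without replicate 2 of HIF-2α at 6 h 0.307 points, and with lists of equal length it was 0.142 points. SLC4A4 differed by −3.54 points (p = 0.0370, adjusted p = 0.470, exact permutation test), as one of the 6.43% of genes lower at that unadjusted threshold. With lists of equal length the SLC4A4 difference turned to 2.76 points (p = 0.222, exact permutation test), and with the replicate block its p was 0.0938 (exact permutation test). Without HepG2, where the gene's HIF-2α peaks came from different sites, the difference was −1.93 points (p = 0.222, adjusted p = 0.545, exact permutation test). None of the 3 genes was among the 0.373% of genes that were higher, or the 0.53% that were lower, for HIF-1α at an adjusted p below 0.05.

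Severity and duration of hypoxia were compared within HKC-8 over 12 libraries each, with labels permuted within antibody and a smallest possible p of 0.00926. CA9 was 56.3 points higher after 16 h than after 6 h at 0.5% oxygen (76.3 against 20.1, higher in 3 of 3 antibodies, exact permutation p = 0.0185, adjusted p = 0.607 over 1158 genes), and 2.94% of genes were higher at that unadjusted threshold. At 6 h it had been called for HIF-1α alone (87.4 and 32.9), and at 16 h in all 6 libraries. After 48 h CA9 was called in 1 HIF-2α library (71.8) and 1 HIF-1β library (81.0), and the difference from 6 h was 5.41 points (p = 1.0, exact permutation test), which was 21.8 without replicate 2 and −5.40 with lists of equal length. At 3% oxygen it was called in 1 HIF-1β library (74.4), and the difference from 0.5% was −7.66 points (p = 0.667, exact permutation test).

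CA12 differed by −25.6 points between 3% and 0.5% oxygen (p = 0.25), by −22.5 points between 48 and 6 h (p = 0.333) and by −19.6 points between 16 and 6 h (p = 0.417, exact permutation tests). Leaving out a replicate gave −37.8 to −13.4 points for oxygen and −33.6 to −5.54 points for 16 h, and lists of equal length gave −9.96 points for oxygen. Over all genes tested, the median difference was −8.00 points for 3% oxygen, −9.30 for 48 h and 3.45 for 16 h. SLC4A4 had too few calls to be tested in any of these. In none of the 3 comparisons did any gene pass the adjusted threshold, so 0 of 901, 862 and 1158 genes were called by the permutation test. At an unadjusted p below 0.05 there were 1 higher and 43 lower, 0 higher and 27 lower, and 34 higher and 4 lower. Because the smallest possible p was 0.00926 (exact permutation test), a gene could pass only if many genes reached that p together. The counts of 0 therefore do not show that oxygen or duration had no effect.

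Cell lines were compared with WT HKC-8 in the same way, over 12 libraries each. In HepG2, CA12 stood at 16.3 against 84.1 (a difference of −67.7 points) and SLC4A4 at 4.40 against 85.0 (−80.6 points). Both were lower in all 3 antibodies without overlap, an order that 7.1% of genes had with the HIF-1α antibody, 24% with HIF-2α and 28.3% with HIF-1β. Their exact permutation p of 0.00926 was the smallest the design allows, and the adjusted p was 0.0691 over 4828 genes, of which 12.5% were lower at an unadjusted p below 0.05. The CA12 call in the HepG2 library labelled HIF-2α replicate 1 (50.8) came from a single-library site 38.6 kb upstream of the TSS, not from the intron sites. CA9 differed by −0.0925 points (p = 0.981, exact permutation test), at 94.0 in HepG2 and 94.1 in WT HKC-8. HKC-8 and HepG2 come from kidney and liver and were processed as separate experiments, so line and experiment cannot be told apart.

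In RCC4, CA9 differed from WT HKC-8 by −4.61 points (p = 0.222, adjusted p = 0.363), CA12 by −12.9 points (p = 0.537) and SLC4A4 by 0.265 points (p = 0.963, exact permutation tests over 3520 genes). With lists of equal length these were −0.862 points, 1.26 points and 11.8 points (SLC4A4 p = 0.0278, adjusted p = 0.104, exact permutation test), and without replicate 2 they were −0.996 points, −0.285 points and 2.59 points. By percentile the antibodies differed in direction. For HIF-1α all 3 genes lay higher in RCC4 without overlap, as did 14% of genes, and for HIF-1β all 3 lay lower, as did 55.1%. The RCC4 HIF-1β lists were short, at 911 and 1305 peaks against 6199 and 8279 in WT HKC-8. By rank from the top these directions did not all hold: for HIF-1β SLC4A4 stood higher in RCC4 (230 and 304 against 494 and 366), and for HIF-1α CA9 stood lower (84 and 55 against 52 and 48). The SLC4A4 ranks for HIF-1α overlapped (493 and 235 against 453 and 413). For HIF-1β the only CA12 call in RCC4 (428) ranked above both WT calls (514 and 550). By rank, CA12 for HIF-1α and CA9 for HIF-1β kept their directions. RCC4 also differed in oxygen from HKC-8, and line, oxygen and experiment cannot be told apart. No gene passed the adjusted threshold in either line comparison (0 genes by the permutation test, against 99 higher and 534 lower in RCC4, and 666 higher and 602 lower in HepG2, at an unadjusted p below 0.05).

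Among 2526 genes called in at least 10 libraries, those whose percentiles ran most like CA9 over the 50 libraries were GBE1, the glycogen branching enzyme (Spearman's rho 0.905), GTF2IRD2B (0.883) and INSIG2, which retains the sterol sensor in the endoplasmic reticulum (0.873). For CA12 they were SOX1 (0.868), PRKAG2 (0.859) and CD34 (0.838), and for SLC4A4 they were ARHGAP35 (0.881), MAP3K21 (0.867) and ST3GAL3 (0.850). CA12 and SLC4A4 gave a rho of 0.759 with each other, whereas CA9 gave 0.395 with CA12 and 0.397 with SLC4A4. Without HepG2 these were 0.796, 0.487 and 0.505, and GBE1 gave 0.891 with CA9, SOX1 0.906 with CA12 and ARHGAP35 0.905 with SLC4A4. These values describe the 50 libraries, which share antibodies and list lengths, and carry no p.

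Of 59 other genes of acid-base transport, 16 (27.1%) had a peak in both replicates of at least 1 group, close to the 26.1% of all protein-coding genes. Without HepG2 it was 13 of 59, against 20.7% of all genes. The proton-coupled lactate exporters and their chaperone gave 3 of 5. SLC16A3 (MCT4), the lactate exporter of glycolytic cells, was called in 41 libraries and in both replicates of 17 groups, at 99.6 and 99.9 for HIF-1α after 48 h. SLC16A1 (MCT1) was called in 17 libraries and BSG (basigin) in 11. Among the sodium-proton exchangers, SLC9A9 was called in 25 libraries, with its strongest peak 181 kb from the nearest TSS of the gene. It was called in both replicates of 6 HIF-2α, 2 HIF-1α and 2 HIF-1β groups, a split that was not counted over all genes. SLC9A8 was called in 13 libraries. Subunits of the V-ATPase, the proton pump of endosomes and lysosomes, gave 4 of 21, which were ATP6V0A4 (16 libraries), ATP6V0A1 (15), ATP6V0D2 (15) and ATP6V1H (9). Other carbonic anhydrases gave 3 of 12 (CA5B with 8 libraries, CA10 with 7 and CA5A with 5), and other bicarbonate transporters 3 of 12 (SLC26A9 with 8 libraries, SLC4A10 with 7 and SLC4A9 with 6). A peak at a gene in both replicates need not be the same site.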

How the data were processed

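The 50 ChIP-seq peak lists were analysed, and the 16 input samples were not used here as samples of their own. Per the labels and the study's methods, the authors trimmed reads with Trim Galore 0.3.3, aligned them to GRCh37 (hg19) with BWA 0.7.5a-r405, processed them with SAMtools 0.1.19, bedtools 2.17.0 and Picard 1.106, and called peaks with MACS in control mode. Peaks in the lists are numbered without gaps in each library, so later filters of the study (a second caller, T-PIC, and overlap of replicates) do not appear to have been applied to them. The score deposited with each peak was read as the MACS scaled negative log p (lowest value 50.0); only its rank within a list was used. Depth is unknown, so no interval for counting error could be given.

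Peaks were assigned to protein-coding genes of GENCODE release 44 mapped to GRCh37 by the nearest TSS. The plan had been to use the nearest gene body. That rule gave 28 of the 36 CA9 promoter peaks to ARHGEF39, whose long transcript covers the CA9 start, and distance to the TSS was chosen after seeing this. Peaks overlapping by at least 1 bp were merged into sites. Genes with a peak in at least 3 of the libraries compared were tested by exact two-sided permutation of the percentile over libraries within strata (condition or antibody), with Benjamini-Hochberg adjustment over all genes tested. The test was checked on simulated data. The 5 genes, the gene lists and the comparisons were chosen with earlier results of these data known. All 5 genes and every site in at least 2 libraries are described; the 3 genes most like each gene called in at least 10 libraries, and each other acid-base gene with a peak in both replicates of a group, are named, except for an item that is not reported here. Python 3.11.15, numpy 2.4.6, pandas 2.3.3 and scipy 1.17.1 were used. The alternatives were a call of 0 or 1, lists of equal length, a score of at least 100, a reach of 10 kb, genes of every type, nearest gene body, no filter on libraries, windows of 200 bp, a replicate block, and leaving out each replicate, each library and HepG2. Leaving out single libraries, and leaving out the 3% and 48 h conditions or all lines but HKC-8, and gene body distance in comparisons other than that planned, and the counts and likeness without HepG2, were added after seeing the data.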

Additional observations from a re-analysis of the deposited data

How the results depend on the processing

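Peak lists limit what can be said: a site that was not called has no value, list length sets the percentile of a weak peak, and groups hold 2 libraries. Nearest gene body in place of nearest TSS left CA9 with 8 of its 36 libraries and turned its isoform difference to −18.5 points and its HepG2 difference to 1.43. Cutting lists to equal length raised the isoform difference of CA9 past the threshold (23.4 points), turned those of CA12 (0.142) and SLC4A4 (2.76), the 48 h difference of CA9 (−5.40) and the RCC4 difference of CA12 (1.26), and left 22, 1 and 2 libraries with a peak at CA9, CA12 and SLC4A4, because only the best 237 peaks of each list remained for that count. Peaks with a score of at least 100 turned the RCC4 difference of SLC4A4 to −20.9 points, left CA12 with 17 libraries and left 4 of the 16 sites, all of them in at least 2 libraries.

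Leaving out a replicate number or a single library gave isoform differences of 6.66 to 16.9 points for CA9, −10.7 to 0.722 for CA12 and −3.97 to −3.12 for SLC4A4. The CA9 value was lowest without HIF-2α replicate 2 at 48 h (237 peaks) and highest without HIF-2α replicate 1 at 48 h. The CA12 value was above 0 without replicate 2 of HIF-1α (0.722) or of HIF-2α (0.307) at 6 h. Leaving out a replicate number gave RCC4 differences of −1.74 to 2.59 for SLC4A4 and HepG2 differences of −1.36 to 1.17 for CA9. It left 18 to 19, 14 to 15 and 11 libraries with a peak at CA9, CA12 and SLC4A4. These counts had to fall, because about as many libraries were dropped as kept.

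Over all genes, 46 passed the threshold for the isoform difference. The count was 90 with lists of equal length, 112 without HepG2, 73 in HKC-8 alone, 24 with genes of every type, and 0 with calls of 0 or 1, with the replicate block, with no filter on libraries and without the 3% and 48 h conditions. With a replicate number left out, each condition kept 1 library a side, too few for a count to be given. The count ran from 18 to 88 when a single library was left out. It was 88 without HIF-2α replicate 2 at 48 h, and 18 and 27 without HIF-1α replicate 1 or 2 at 48 h. It was 72 without the HepG2 library labelled HIF-1α replicate 2 and 81 without that labelled HIF-2α replicate 1. The cause was not tested.

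Replicate numbers gave no clear pairing of HIF-1α with HIF-2α libraries. Deviations of the same number correlated above 0.1 between them in 2 of 7 conditions (Pearson's r across genes −0.279 to 0.175). The lowest value was in HepG2, where labels and lists disagreed, and HIF-1β was not compared. With the replicate block, the isoform difference of CA9 was 11.8 points (adjusted p = 0.743, exact permutation test) and no call at the 3 genes changed at the adjusted threshold. In the RCC4 block only libraries with matching numbers entered. A gene called in too few libraries under an alternative has no value there. In all, 235 alternative values were counted as keeping their direction and side of the threshold, or a count within 1.5 times. A further 27 counts moved further, 11 differences turned and 1 came past the threshold. The 235 include differences that fell to exactly 0, such as that of CA12 between 16 and 6 h with calls of 0 or 1. Between the knockouts, and with a replicate number left out, too few arrangements were possible for a change of side, so those entries could hardly differ. The 27 include the counts of libraries after a replicate number was dropped, which had to fall.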
